A study of Homo sapiens with 4 samples.

Results

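SLC9A3, its antisense gene SLC9A3-AS1 and 4 further sodium/proton exchanger genes (SLC9A2, SLC9A7, SLC9A8 and SLC9A9) were followed in A549 cells, an established human line of lung adenocarcinoma. The 6 genes are members of a table of 64253 listed genes. They were chosen by the readout of this same comparison, because the counts of SLC9A3 and SLC9A3-AS1 were lower together in the NFATc2 libraries, so the values of the 6 genes are given as a description without a test. Cells were transfected with the pENTER plasmid of wild type NFATc2 in 2 libraries, or of NFATc2M, a mutant that lacks a stretch of the DNA-binding domain, in 2 libraries. Cells of all 4 libraries received OPNc-CM, medium conditioned by HEK-293T cells that secrete the osteopontin splice isoform OPNc. The comparison was meant to find genes that need the DNA binding of NFATc2. No library without a plasmid or without OPNc-CM was compared, and the cells kept their own NFATC2 gene.

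Gene counts came to between 21011786 and 23527259 per library, and 17459 genes passed the filter on low counts. NFATC2, which both plasmids carry, had 2210 and 2520 CPM (counts relative to TMM-scaled library size) with NFATc2, against 2580 and 2430 CPM with NFATc2M, so its level does not check the labels, and the direction of every difference rests on the column names of the deposited table. A second sheet holds the same counts without sample names and with the 2 groups in the opposite order. Of 7 genes that check the A549 label, 5 had counts, with sums of 149372 to 166074 with NFATc2 and 130680 to 142529 with NFATc2M, and CDKN2A and CDKN2B, deleted in A549, had 0. Markers of HEK-293T, the source of the medium, summed to 1912 to 2374 counts with NFATc2 and 1842 to 1894 with NFATc2M over 5 of 6 genes with a count (SIM1 had 0), and none of these 5 passed the test.

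Sodium/proton exchangers of the SLC9 family move a proton across a membrane in exchange for a sodium or potassium ion, and so set the pH of the cytosol and of organelles and the volume of the cell. SLC9A3 encodes NHE3, the exchanger of the apical membrane that absorbs sodium in kidney tubule and intestine. It is held in place by scaffold proteins that link it to ezrin and actin, and cyclic AMP and calcium signals lower its activity. SLC9A3-AS1 is a long noncoding RNA gene read from the other strand, with no function stated here.

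SLC9A3 (ENSG00000066230) lies on the minus strand of chromosome 5 of GRCh38, from 470456 to 524449. SLC9A3-AS1 (ENSG00000225138) lies inside it on the plus strand, from 473236 to 480884. In the GENCODE v44 annotation their exons overlap on 830 bases, which are 14.4% of the exonic bases of SLC9A3 and 17.5% of those of SLC9A3-AS1. SLC9A3-AS1 exons lie opposite 6 of the 17 exons of the main SLC9A3 transcript. Exons 10, 11 and 13 are opposite over their whole length, exons 12, 14 and 17 in part. Exons 12 and 13 of SLC9A3 are shown in their coding sense from GRCh38 because they carry both cases, with the bases opposite a SLC9A3-AS1 exon in capitals. Exon 12 is chr5:476543-476672 on the minus strand, with 21 of its 130 bases opposite, and exon 13 is chr5:476202-476378 on the minus strand, with all 177 bases opposite.
SLC9A3 exon 12: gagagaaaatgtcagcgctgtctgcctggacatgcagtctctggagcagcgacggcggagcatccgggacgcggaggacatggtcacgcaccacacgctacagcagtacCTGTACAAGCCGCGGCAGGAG
SLC9A3 exon 13: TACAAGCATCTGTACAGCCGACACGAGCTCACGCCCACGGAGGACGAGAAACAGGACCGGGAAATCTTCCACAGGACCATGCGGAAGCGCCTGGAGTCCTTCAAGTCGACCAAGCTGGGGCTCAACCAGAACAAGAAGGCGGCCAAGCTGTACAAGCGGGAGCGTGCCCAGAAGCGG

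The promoter letters of the 6 genes were searched because the compared mutant lacks DNA binding. NFAT proteins bind a GGAAA core, often beside an AP-1 site (TGANTCA), and GGGCGG is the GC box bound by SP1. Each motif was searched on both strands in the 250 bases before the gene start of the RefSeq promoter table (GRCh38.p14), in which all 6 genes matched. GGAAA had 0 matches in SLC9A3, SLC9A3-AS1, SLC9A2, SLC9A7 and SLC9A9 and 2 in SLC9A8, and 55.6% of 35116 promoters of this length hold at least 1. TGANTCA had 1 match in SLC9A8 and 2 in SLC9A9 and 0 in the other 4 (6.57% of promoters hold at least 1). GGGCGG had 6 matches in SLC9A3, 5 in SLC9A3-AS1, 4 in SLC9A2, 3 in SLC9A7, 2 in SLC9A8 and 0 in SLC9A9 (42.6% of promoters). The windows of SLC9A3, SLC9A3-AS1, SLC9A2 and SLC9A7 were 82.0%, 82.4%, 79.6% and 81.2% GC, those of SLC9A8 and SLC9A9 66.0% and 34.0%, and the median promoter 58.0%. A match is a run of letters and not a bound site, and the absence of a match covers this window alone. The window of SLC9A3 is shown as the one with the most GC boxes and that of SLC9A8 as the one with the NFAT core. The first is chr5:524450-524699 on the minus strand with GGGCGG or CCGCCC in capitals, where the first pair of matches overlaps. The second is chr20:49812578-49812712 on the plus strand, which ends before the annotated exon, with GGAAA or TTTCC in capitals.
SLC9A3 upstream: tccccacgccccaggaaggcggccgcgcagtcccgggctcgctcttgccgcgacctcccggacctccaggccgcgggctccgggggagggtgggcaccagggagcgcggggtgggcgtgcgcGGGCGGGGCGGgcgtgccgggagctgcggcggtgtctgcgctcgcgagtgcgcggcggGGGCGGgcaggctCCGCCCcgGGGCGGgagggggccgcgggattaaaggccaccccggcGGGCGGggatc
SLC9A8 upstream: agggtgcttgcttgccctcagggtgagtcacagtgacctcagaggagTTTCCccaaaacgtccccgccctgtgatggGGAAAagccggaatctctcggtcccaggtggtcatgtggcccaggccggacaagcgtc

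In the NFATc2 libraries SLC9A3 and SLC9A3-AS1 stood at 0.446 and 0.394 times their NFATc2M level, while SLC9A2, SLC9A7 and SLC9A8 stood at 1.42, 1.19 and 0.947 times theirs. SLC9A3 had 368 and 390 counts with NFATc2, against 898 and 725 counts with NFATc2M, which is 17.0 and 16.8 CPM against 42.4 and 33.5 CPM. Both NFATc2 libraries were low and nearly equal, the NFATc2M libraries were further apart, and the groups did not overlap. The means were 16.9 ± 0.159 CPM with NFATc2 and 37.9 ± 6.32 CPM with NFATc2M (SD, n = 2 each), and the log2 fold change was -1.17 (standard error, SE, 0.15). SLC9A3-AS1 had 609 and 575 counts with NFATc2, against 1504 and 1371 counts with NFATc2M, or 28.1 and 24.7 CPM against 71.0 and 63.3 CPM. Here too the NFATc2 libraries were both below the NFATc2M libraries, with little spread inside either group. The means were 26.4 ± 2.41 CPM with NFATc2 and 67.1 ± 5.47 CPM with NFATc2M (SD, n = 2 each), and the log2 fold change was -1.34 (SE 0.13). Of the 17459 tested genes, 268 had a lower log2 fold change than SLC9A3 and 169 a lower one than SLC9A3-AS1.

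SLC9A2 encodes NHE2, a plasma membrane exchanger of epithelia. It had 165 and 239 counts with NFATc2, against 108 and 163 with NFATc2M, or 7.63 and 10.3 CPM against 5.10 and 7.52 CPM. The groups touched, with the lower NFATc2 library just above the higher NFATc2M library. The log2 fold change was 0.51 (SE 0.23), and it ran from 0.25 to 0.81 when each library was left out in turn. SLC9A7 encodes NHE7 of the trans-Golgi network, which exchanges potassium as well as sodium. It had 58.3 and 59.8 CPM with NFATc2, against 45.4 and 53.7 CPM with NFATc2M, with a log2 fold change of 0.25 (SE 0.13) that ran from 0.13 to 0.38 when each library was left out in turn. The NFATc2 libraries were close together and both higher, and the distance to the nearer NFATc2M library was smaller than the distance between the NFATc2M libraries. SLC9A8 encodes NHE8, found in the Golgi and in apical membranes. It had 39.6 and 44.4 CPM with NFATc2, against 44.5 and 44.3 CPM with NFATc2M, with a log2 fold change of -0.08 (SE 0.13). The groups of SLC9A8 overlapped. SLC9A9 encodes NHE9 of endosomes and was below the filter. It had 6 and 10 counts with NFATc2, against 5 and 5 counts with NFATc2M, a depth-scaled ratio of 1.53 whose exact 95% interval of 0.652 to 3.77 covers counting error only. No difference of SLC9A9 was detectable at this depth.

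**Figure D1:**
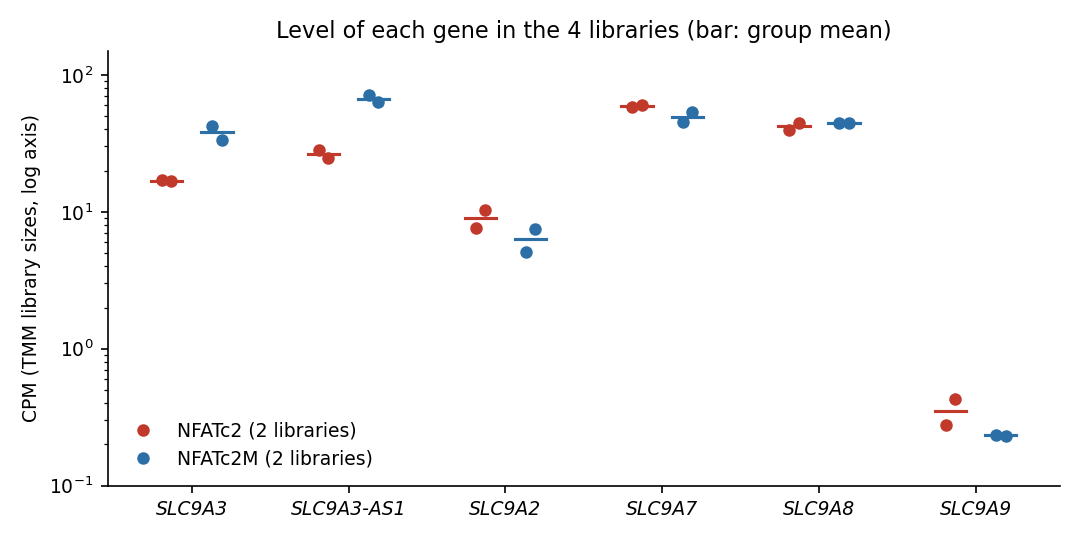
CPM (log axis) of the 6 genes in the 2 NFATc2 libraries (red, left of each pair) and the 2 NFATc2M libraries (blue), with bars at the group means. SLC9A3 at 17.0 and 16.8 CPM and SLC9A3-AS1 at 28.1 and 24.7 CPM with NFATc2 lie well below their NFATc2M libraries, and the groups of SLC9A8 overlap.

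By the call used here, an adjusted p of at most 0.05 from edgeR's quasi-likelihood test and a change of at least 1.2-fold, 1508 genes were called, 856 higher and 652 lower in NFATc2 cells. Of the 6 genes 5 were tested, 2 were called lower and 0 higher, beside 8.64% of all tested genes called either way, 3.73% called lower and 4.9% called higher, and nothing is read from this because the genes were selected on this contrast. DESeq2 and limma voom also called 2 lower and 0 higher, while 2 of the genes with positive values had an unadjusted p under 0.05 with edgeR and 0 with DESeq2. The CPM of the groups did not overlap for 2 of the 5 in each direction, against 53.1% of all tested genes, 26% with NFATc2 lower and 27.2% with NFATc2 higher. Nothing in the labels says that the libraries of a group came from separate cultures, so p-values here measure the spread between libraries, which may be technical.

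Compared per kilobase of exon, the antisense gene stood above the exchanger genes in NFATc2M cells and among them in NFATc2 cells. The lengths are exonic bases of GENCODE v44, while the counts were made on Ensembl release 94, so the order is approximate. In NFATc2M cells SLC9A3-AS1 had the highest level with 14.2 ± 1.16 CPM per kb, followed by SLC9A3 with 6.59 ± 1.10 and SLC9A8 with 6.39 ± 0.0218 CPM per kb (SD, n = 2 each). SLC9A3 and SLC9A8 differed there by less than the SD of SLC9A3. In NFATc2 cells SLC9A8 led with 6.05 ± 0.485 CPM per kb, then SLC9A7 with 5.92 ± 0.109 and SLC9A3-AS1 with 5.59 ± 0.509 CPM per kb. The levels of SLC9A8, SLC9A7, SLC9A3-AS1 and SLC9B1 were not separated beyond the SD of neighbours in that order. SLC9A3 came below them with 2.94 ± 0.0276 CPM per kb, and below SLC9A5 at 4.62 ± 0.442 CPM per kb. SLC9A2 had 1.45 ± 0.305 CPM per kb with NFATc2 and 1.02 ± 0.278 with NFATc2M, against 0.0876 ± 0.0268 and 0.0578 ± 0.000928 for SLC9A9, the lowest of the 6 genes in both groups.

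Other exchanger genes did not pass the test. Of 6 described here, 3 were tested and 0 were called by edgeR, DESeq2 or limma voom; 1 had an unadjusted p under 0.05 with edgeR, and the median log2 fold change was -0.041, against 0.001 over all tested genes. SLC9A5 encodes NHE5, known from neurons, with a log2 fold change of -0.14 (SE 0.15, edgeR adjusted p = 0.63). SLC9B2, of the related NHA branch of the family, had 0.47 (SE 0.22, edgeR adjusted p = 0.17), and SLC9B1 of the same branch had -0.04 (SE 0.18, edgeR adjusted p = 0.93). In a fit with an offset that takes away the trend of each library with GC content and exon length (the GC/length offset fit), the value of SLC9A5 turned sign, to 0.10, SLC9B1 had -0.23 and SLC9B2 0.28, and the median turned to 0.104, against 0.033 over all tested genes. SLC9A4, a stomach exchanger, had 0 and 0 counts with NFATc2 and 4 and 0 with NFATc2M. SLC9C1, known from sperm, had 0 and 5 against 1 and 2 counts, and SLC9C2 had 0 in every library, where 3 counts would be 0.129 to 0.142 CPM.

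**Figure D2:**
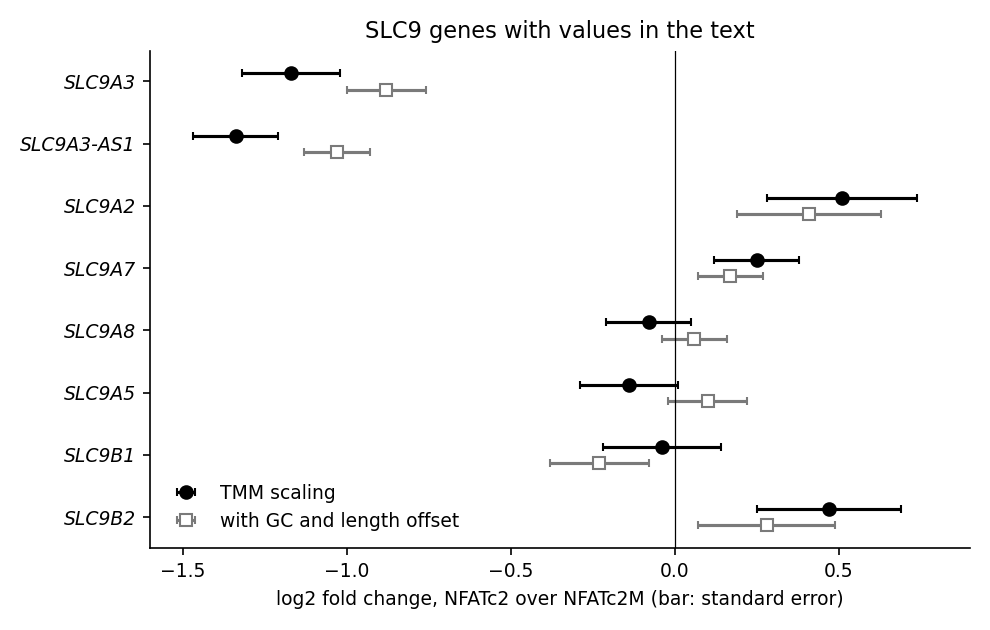
Log2 fold change of NFATc2 over NFATc2M for SLC9A3, SLC9A3-AS1, SLC9A2, SLC9A7, SLC9A8, SLC9A5, SLC9B1 and SLC9B2, with standard errors, from the fit with TMM scaling (filled circles) and from the GC/length offset fit, which removes the trend of each library with base composition and exon length (open squares). SLC9A3 at -1.17 and SLC9A3-AS1 at -1.34 lie apart from the other genes, and at -0.88 and -1.03 with the offset.

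Reads of SLC9A3 and SLC9A3-AS1 over opposite exons can be told apart only if the library kept strand and the counting used it. The strand setting was not given in the sources used here. The counts themselves were examined at 235 genes of at least 200 exonic bases that lie at least 95% opposite exons of a gene with 400 or more counts per kb. All but 1 had counts. Their density had a median of 1.42 times that of the partner (quartiles 0.666 and 2.28). Values like these would be seen if reads of a gene were also counted for the gene opposite. Reads from the 2 genes may therefore be mixed over the shared bases, and their lower counts with NFATc2 are not separate measurements there. The other exonic bases of SLC9A3-AS1 lie in introns of SLC9A3, where unspliced SLC9A3 reads may be counted for it too. In an estimate with even read density, counts at the partner's density were taken off for the shared bases. The log2 ratio left was -1.09 for SLC9A3 and -1.36 for SLC9A3-AS1, against -1.17 and -1.34 for all counts. The estimate does not cover unspliced reads in introns. Whether the lower counts are separate measurements outside the shared bases was not tested.

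Other genes share the end of SLC9A3 too. PP7080, an uncharacterised gene on the same strand, covers 2363 exonic bases of SLC9A3 (41.1%), and EXOC3, a subunit of the exocyst, covers 839 on the other strand (14.6%). Bases of no other gene make up 43.2% of the SLC9A3 exons. PP7080 had 25 and 28.6 CPM with NFATc2, against 42.9 and 34.8 CPM with NFATc2M. It was lower in both NFATc2 libraries, and its fold change was -0.54 on the log2 scale (SE 0.14, edgeR adjusted p = 0.0090), but it was not called in the GC/length offset fit (-0.28, adjusted p = 0.22) or without NFATc2 replicate 1 or NFATc2M replicate 1. EXOC3 had a log2 fold change of -0.15 (SE 0.12, edgeR adjusted p = 0.45). The density of SLC9A3-AS1 was 2.01 and 1.79 times that of SLC9A3 in the NFATc2 libraries, against 2.04 and 2.30 times in the NFATc2M libraries. The nearest values, 2.01 and 2.04, lay closer than the libraries inside either group, so no direction is read from them. The density of PP7080 was 3.05 and 3.54 times that of SLC9A3 with NFATc2, against 2.11 and 2.17 times with NFATc2M, higher in both NFATc2 libraries. The lengths behind these densities include the shared bases. Reads over the 2363 bases that SLC9A3 shares with PP7080 on the same strand may be counted for neither gene. These are 85.4% of the exonic bases of PP7080, so the sizes of its ratios may be far off. Over the bases opposite SLC9A3-AS1 reads may be mixed, so those ratios are approximate. AC106772.2, a long noncoding RNA gene at the start of SLC9A3, had 0 and 0 counts with NFATc2 and 1 and 0 with NFATc2M. The SLC9A3 pseudogenes SLC9A3P1, SLC9A3P2 and SLC9A3P3 had 0 counts in all 4 libraries.

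**Figure D3:**
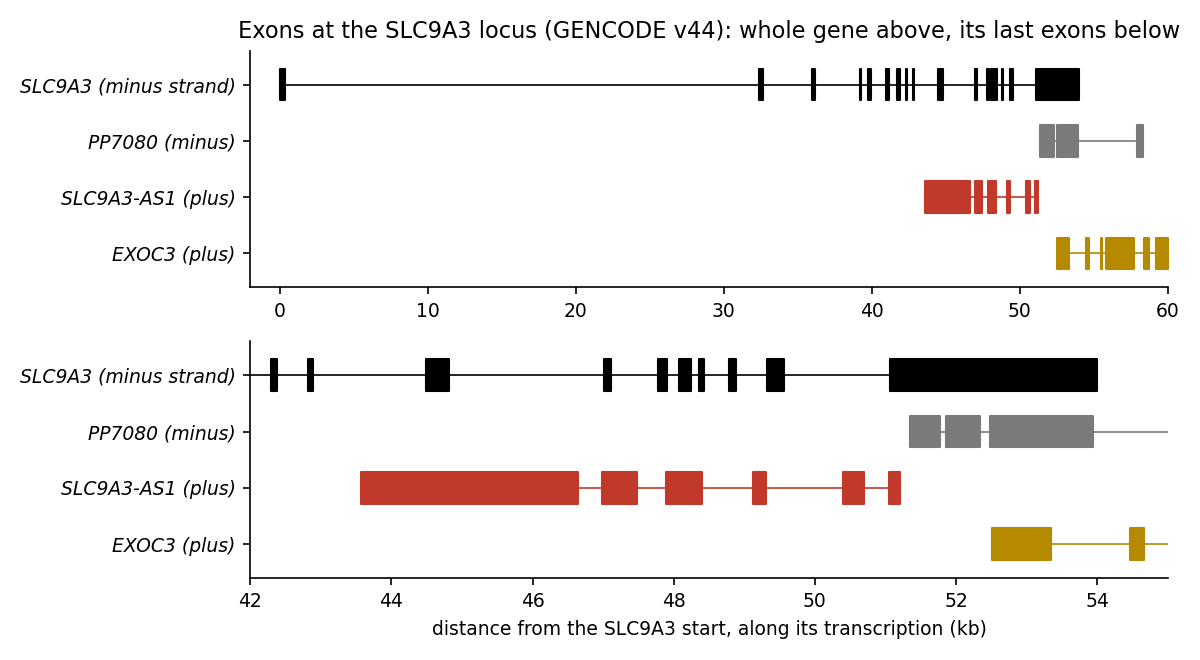
Exons of SLC9A3, PP7080, SLC9A3-AS1 and EXOC3 by distance in kb from the SLC9A3 start, with the whole gene in the upper panel and its last exons enlarged in the lower one. Exons of SLC9A3-AS1 lie opposite 6 SLC9A3 exons, and PP7080 and EXOC3 cover much of the last exon.

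Genes around SLC9A3 at the end of the short arm of chromosome 5 had mostly negative values as well. Of 18 listed neighbours 17 were tested, 4 were called lower and 0 higher (6 and 0 at an unadjusted p under 0.05 with edgeR; 0 higher with DESeq2 and limma voom too), beside 3.73% of all tested genes called lower. A negative log2 fold change was found for 16, and the median was -0.381, against 0.001 over all tested genes, -0.18 against 0.033 in the GC/length offset fit, and -0.254 without NFATc2M replicate 1. Over all tested genes 49.9% were negative. ZDHHC11, a palmitoyltransferase gene, had 8.0 and 7.02 CPM with NFATc2, against 16 and 16.7 CPM with NFATc2M. The fold change was -1.12 on the log2 scale (SE 0.20, edgeR adjusted p = 3.4e-05), and it may share reads with its near-identical copy ZDHHC11B. AHRR, the repressor of the aryl hydrocarbon receptor, had 6.06 and 6.97 CPM with NFATc2 and 11.0 and 10.2 with NFATc2M (-0.70, SE 0.22, edgeR adjusted p = 0.027). Both were lower in each NFATc2 library than in either NFATc2M library. TPPP, a tubulin polymerisation factor, had 10.7 and 10.5 CPM with NFATc2, against 17.5 and 13.9 with NFATc2M (-0.57, SE 0.19, edgeR adjusted p = 0.041). PDCD6, a calcium-binding adaptor of vesicle transport, had 56 and 56 CPM with NFATc2, against 79.5 and 66.3 with NFATc2M (-0.38, SE 0.12, edgeR adjusted p = 0.034), and shares exons with a read-through gene into AHRR. Their groups did not overlap either. AHRR, TPPP and PDCD6 were not called in the GC/length offset fit, nor without either NFATc2 library or without NFATc2M replicate 1, AHRR and TPPP not with DESeq2, AHRR not without NFATc2M replicate 2 and TPPP not without the filter on low counts, while ZDHHC11 was called under each of 14 alternatives.

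When all tested genes within 1 Mb of the SLC9A3 start were taken, a window added after the data had been seen, 22 genes remained beside SLC9A3 and SLC9A3-AS1. Of these 5 were called lower (beside 3.73% of all tested genes) and 17 were not called. The 5 include PP7080, which shares exonic bases with SLC9A3. A negative value was found for 21, and TRIP13 alone had a positive one (0.05, edgeR adjusted p = 0.84). The median of the 22 was -0.422, and -0.214 in the GC/length offset fit, with which 1 was called lower. The 774 tested genes of the whole chromosome had a median of 0.105, with 68 called higher and 19 lower, and of 0.022 in the GC/length offset fit, with 15 higher and 7 lower. The window had a median exonic GC content of 56.6%, against 44.6% over chromosome 5. Whether position has a part in these values was not tested.

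**Figure D4:**
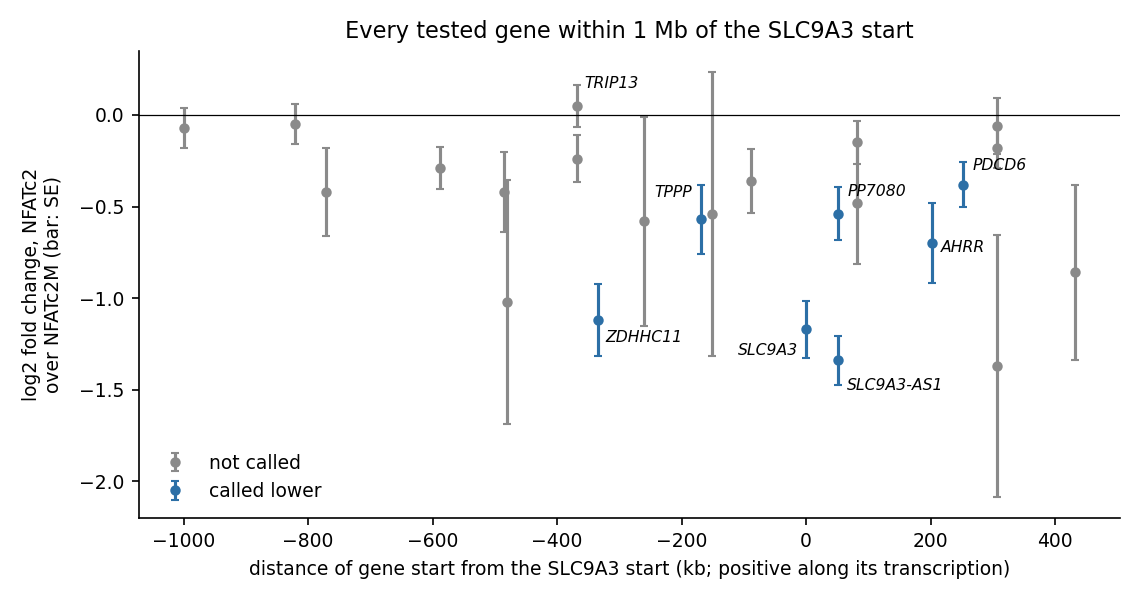
Log2 fold change of NFATc2 over NFATc2M, with standard errors, of every tested gene within 1 Mb of the SLC9A3 start, by the distance of its own start along the direction of SLC9A3 transcription. The 7 genes called lower (blue) include SLC9A3 and SLC9A3-AS1, which were chosen on this contrast. Over all tested genes 3.73% were called lower. Genes not called are grey, and TRIP13 is the one value above 0.

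GC content moved with the comparison over all genes. Across 17163 genes with a value, log2 fold change and exonic GC content had Pearson's r of -0.457, a description across genes of the same 4 libraries. SLC9A3 (61.5% GC) and SLC9A3-AS1 (64.7%) lie above the median of 48.7%, and SLC9A2 (44.2%) and SLC9A7 (44.8%) below it. In the GC/length offset fit 583 genes were called (3.34% of those tested), 385 higher (2.21%) and 198 lower (1.13%). The log2 fold change was then -0.88 (SE 0.12) for SLC9A3 and -1.03 (0.10) for SLC9A3-AS1. It was 0.41 (0.22) for SLC9A2 and 0.17 (0.10) for SLC9A7, and for SLC9A8 (54.3% GC) it turned sign, to 0.06 (0.10).

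**Figure D5:**
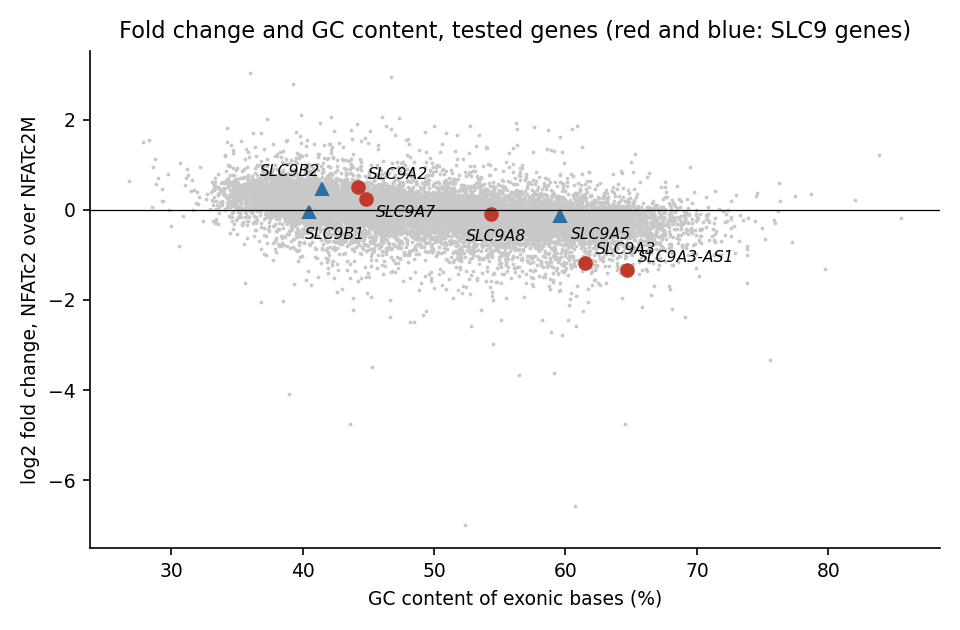
Log2 fold change of NFATc2 over NFATc2M against exonic GC content for tested genes (grey), with SLC9A2, SLC9A3, SLC9A3-AS1, SLC9A7 and SLC9A8 (red circles) and SLC9A5, SLC9B1 and SLC9B2 (blue triangles). Fold changes fall with GC content (r = -0.457), and SLC9A3 lies at 61.5% GC and -1.17, SLC9A3-AS1 at 64.7% GC and -1.34.

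Genes whose products bind, modify or anchor NHE3 were mostly not called. Of 36 listed, 32 were tested, 4 were called higher, 1 lower and 27 neither (beside 4.9% and 3.73% of all tested genes), with a median log2 fold change of 0.192, against 0.001 over all tested genes (0.148 against 0.033 in the GC/length offset fit). RDX, radixin, which ties membrane proteins to actin like ezrin, had 134 and 143 CPM with NFATc2, against 79.7 and 110 with NFATc2M (0.54, SE 0.12, edgeR adjusted p = 0.00096). AKAP11, an anchor of the cyclic AMP-dependent kinase, had 52.0 and 57.4 CPM with NFATc2, against 31.5 and 40.8 with NFATc2M (0.60, SE 0.13, edgeR adjusted p = 0.0013). Both rose, with all NFATc2 libraries above all NFATc2M libraries. GNA13, a G protein alpha subunit, also rose, with 139 and 157 CPM with NFATc2 against 107 and 120 with NFATc2M (0.39, SE 0.11, edgeR adjusted p = 0.015). CAMK2G, a calcium/calmodulin-dependent kinase subunit, fell, with 39.6 and 41.9 CPM with NFATc2 against 58.1 and 59.3 with NFATc2M (-0.53, SE 0.13, edgeR adjusted p = 0.0036). The fifth called gene, CHP1, a calcineurin-like cofactor of the exchangers, was named after its values were seen and had 0.36 (SE 0.11, edgeR adjusted p = 0.027), without a call when libraries were scaled by library size or upper quartile. The ezrin and scaffold genes did not pass, with 0.07 for EZR (edgeR adjusted p = 0.73), 0.12 for NHERF1 (0.63), -0.25 for NHERF2 (0.28) and -0.58 for PDZK1 (0.67). In the GC/length offset fit NHERF1 was called higher (0.42, edgeR adjusted p = 0.018) and NHERF2 turned sign, to 0.10 (0.72). AKAP11 and GNA13 were not called in the GC/length offset fit, and leaving out NFATc2 replicate 2 or NFATc2M replicate 1 left 0 calls with edgeR in this list (6 and 5 at an unadjusted p under 0.05), leaving out NFATc2 replicate 1 left 2.

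Other transporters and enzymes of acid and base were mostly not called either. Of 34 listed, 27 were tested, 3 were called higher, 1 lower and 23 neither (beside 4.9% and 3.73% of all tested genes). The median was 0.187, against 0.001 over all tested genes, and it was 0.086 without NFATc2 replicate 2 and 0.092 without NFATc2M replicate 1. SLC26A2, a sulfate/anion exchanger, had 155 and 160 CPM with NFATc2, against 103 and 125 with NFATc2M (0.47, SE 0.11, edgeR adjusted p = 0.0026). SLC16A1, the proton-coupled lactate carrier MCT1, had 95.9 and 97.9 CPM with NFATc2, against 65.2 and 75.2 with NFATc2M (0.46, SE 0.12, edgeR adjusted p = 0.0045). SLC4A7, a sodium/bicarbonate cotransporter, had 86.8 and 92.6 CPM with NFATc2, against 62.4 and 74.8 with NFATc2M (0.39, SE 0.12, edgeR adjusted p = 0.023). These rose without overlap of the groups. SLC26A6, a chloride/bicarbonate exchanger that works beside NHE3 in kidney and gut, fell, with 26.0 and 27.9 CPM with NFATc2 against 39.3 and 39.5 with NFATc2M (-0.55, SE 0.14, edgeR adjusted p = 0.0068). Below the filter, and named after their values were seen, CFTR, the chloride channel of apical membranes, had 0 and 0 counts with NFATc2 and 2 and 2 with NFATc2M. SLC26A9, an anion transporter of airway and stomach, had 4 and 17 counts with NFATc2, against 0 and 1 with NFATc2M, a depth-scaled ratio of 20.1 whose exact 95% interval of 3.23 to 829 covers counting error only, with most of the counts in NFATc2 replicate 2. SLC26A2, SLC26A6 and SLC4A7 were not called in the GC/length offset fit, SLC4A7 not with library size scaling, and leaving out NFATc2 replicate 2 or NFATc2M replicate 1 left 0 calls with edgeR (5 and 4 at an unadjusted p under 0.05), leaving out NFATc2 replicate 1 left 1.

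The genes most like SLC9A3 over the 4 libraries were found by the Euclidean distance between log2 CPM profiles, each centred on its own mean. Genes known only by an identifier, a clone name or a LINC number were left out of the nearest genes named here. TSTD3 was nearest (distance 0.073), with 4 and 4 counts with NFATc2 and 12 and 10 with NFATc2M, so its profile rests on few reads. IGSF3P1, a pseudogene, followed (0.103), with 24 and 23 counts against 60 and 46, then DNAH1, an axonemal dynein heavy chain (0.105), with 49 and 48 against 117 and 89. ZFHX2-AS1 (0.133) and DNAJC27-AS1 (0.134), both antisense RNA genes, came next and also rest on few reads. They had 6 and 7 counts against 17 and 15, and 5 and 5 against 15 and 13. SLC9A3-AS1 had a distance of 0.255 and was the 35th when all tested genes were ranked, those left out above included. The log2 CPM used a prior count of 2, which pulls the profiles of genes with few counts towards flatness, and the fitted log2 fold changes of these genes run from -1.53 for DNAJC27-AS1 to -1.15 for DNAH1, against -1.17 for SLC9A3.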

How the data were processed

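The study measured RNA of A549 cells by paired-end sequencing of mRNA libraries, and groups came from the sample titles. The authors used HISAT2 for alignment to GRCh38 (its version is not given in the sources used here), SAMtools 1.18 for sorting and HTSeq 0.11.2 for gene counts on Ensembl release 94, so the deposited file holds raw counts in whole numbers. From 56.4% to 57.4% of a library's total fell into 5 HTSeq summary categories, which were left out. Reads on no feature made up 44.0% to 44.6% of the total and ambiguous reads 1.55% to 1.69%. Whether the strand setting has a part in these shares was not tested. In a second sheet 4 value columns carry no sample names and repeat the counts of the named columns with the 2 groups in the opposite order, and they were not used.

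The test was edgeR 4.0.16 under R 4.3.3 (filterByExpr, TMM, robust glmQLFit, glmQLFTest, no block, 2 residual degrees of freedom), with Benjamini-Hochberg adjustment over 17459 genes. A gene was called when its adjusted p was at most 0.05 and its log2 fold change at least 0.26 in size. Standard errors are the log2 fold change over the root of F. The fit was tested on simulated data. Alternatives were DESeq2 1.42.0, limma 3.58.1 voom, other scalings and filters, legacy=FALSE in glmQLFit, the replicate number as a block, a GC and length offset (spline with 5 degrees of freedom) and each library left out in turn. A fit without a library assumes that the lone library varies like the other group. Genes were matched to GENCODE v44 by identifier. Exonic lengths, GC content and exon overlaps are those of v44 and may differ from the exons used in counting. The chi-square per degree of freedom between the libraries of a group was 10.2 for NFATc2 and 9.66 for NFATc2M, above sampling noise.

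The 6 genes and all lists were chosen with earlier results of these data known. The text names the 6 genes, other exchangers (some listed genes are not reported here), up to 4 called genes with the smallest p in each list, NFATC2 and the 5 genes most like SLC9A3, and further genes of the locus and scaffolds outside that rule. Figures were drawn with matplotlib 3.10.9.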

Additional observations from a re-analysis of the deposited data

How the results depend on the processing

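SLC9A3 and SLC9A3-AS1 were chosen on this contrast, so their values under other settings of the same 4 libraries are a description. With the GC and length offset their log2 fold changes were -0.88 and -1.03, and 583 genes in all were called, with 2 acid-base genes and 1 neighbour of SLC9A3. With each library left out in turn SLC9A3 ran from -1.33 to -0.99, SLC9A3-AS1 from -1.44 to -1.26, and the calls over all genes from 73 (without NFATc2M replicate 1) to 1963 (without NFATc2M replicate 2), with 584 and 318 without NFATc2 replicates 1 and 2. Calls then ran from 0 to 7 among NHE3 partners, 0 to 4 in the acid-base list and 1 to 4 among the neighbours, and DESeq2 called 2 neighbours. Other scalings moved the split of calls, from 856 higher and 652 lower to 556 and 707 with library size alone, and to 662 and 864 with the upper quartile, which shifted the median of all genes by -0.03. With the replicate number as a block 1022 genes were higher and 737 lower, SLC9A3 was at -1.16 and SLC9A3-AS1 at -1.34. Same-numbered libraries did not deviate together (r = 0.0408 over 17459 genes), so the numbers were not taken as pairs. With 2 libraries a group, and only 16 and 10 summed counts for SLC9A9, depth and replicate number limit the low genes, and the cause of the differences between settings was not tested.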
